A study of Mus musculus with 16 samples.

Results

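The 10 genes followed here belong to the R-spondin arm of Wnt signalling and were measured across embryonic bladder and urethra mesenchyme: the ligand genes Rspo1, Rspo2, Rspo3 and Rspo4, the receptor genes Lgr4, Lgr5 and Lgr6, and the feedback genes Znrf3, Axin2 and Lef1. They were picked by gene symbol from the 55228 symbols of the count table, and 9 of the 10 passed the filter on low counts. RNA came from wildtype, untreated embryos of CD-1, an outbred mouse stock, at embryonic day 16.5. Bladder and pelvic urethra of each sex made up the 4 groups, with 4 libraries each, 1 from each of 4 litters. Every library is a pool of the same-sex embryos of a litter, so it reports no single animal. Trypsin and forceps had been used to take the mesenchymal layer off the epithelium, and the labels name no sorting of cells.

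Wnt ligands bind Frizzled receptors with the co-receptors Lrp5 and Lrp6 and stabilise beta-catenin, which then acts with transcription factors of the TCF/LEF family. Znrf3 is a membrane ubiquitin ligase that removes Frizzled receptors from the cell surface. R-spondins are secreted proteins that bring an Lgr receptor and Znrf3, or its relative Rnf43, together, so that the ligase is cleared and the cell responds more strongly to Wnt. Axin2, a scaffold of the complex that degrades beta-catenin, and Lef1, a TCF/LEF factor, are known targets of the pathway in many tissues, and Znrf3 and Axin2 dampen it in turn. In embryonic organs Wnt signals pass between epithelium and mesenchyme in both directions.

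Library totals ran from 18577097 to 22293812 counts in the bladder and from 24447435 to 29698009 in the urethra, so that depth and tissue went together. All 10 mesenchyme markers, among them Vim, Pdgfra and Col1a1, were detected in every library. In sum they stood at 16470 to 20777 counts per 1000000 (CPM) in the bladder and 10446 to 12721 CPM in the urethra. Col1a1, Col3a1 and Col1a2 weigh most in this sum. Gene by gene the mesenchyme list was mixed, with 4 higher in the urethra, 5 lower and 1 not called at an adjusted p under 0.05. The 3 collagen genes were lower there, while Pdgfra, Pdgfrb, Twist1 and Thy1 were higher. None of the 16 epithelium markers was at 0 in a library either. Their summed level was 2250 to 5248 CPM in the bladder and 696 to 2376 CPM in the urethra, and the lowest values, 1082 and 696 CPM, were those of female urethra replicates 3 and 4. The list was mixed between the tissues. At an adjusted p under 0.05, 10 of its genes, among them Krt8 and Upk3a, were lower in the urethra (list median log2 difference −0.97). Grhl2 was the 1 gene higher there, and 5, Epcam, Krt5, Esrp1, Cldn7 and Trp63, did not pass. Whether the lower sum reflects a smaller amount of epithelium was not tested. As these are bulk samples, fewer cells of a type and less RNA per cell cannot be told apart.

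All 9 tested members differed between urethra and bladder at an adjusted p under 0.05 in the edgeR quasi-likelihood test, 6 higher and 3 lower in the urethra. Across all 18254 tested genes 75.0% were called in this comparison, 36.5% in the higher and 38.5% in the lower direction. A call by itself therefore says little here, and the size of the difference says more. Among the members the median log2 difference was 1.13, against −0.03 over all tested genes. By the mean CPM of the tissues Rspo2 was 8.50 times as high in the urethra as in the bladder, Rspo3 4.75 times, Lgr5 4.17 times, Lef1 3.11 times and Axin2 2.19 times. Rspo1 and Lgr6 stood in the urethra at 0.199 and 0.235 times their bladder mean. Within each sex 8 of 9 members were called, against 65.7% of all genes in females and 64.0% in males; the member not called was Lgr4 in females and Znrf3 in males. These log2 differences are means of both sexes, and the 8 libraries of a tissue come from 4 litters, so they are not independent of each other.

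**Figure D1:**
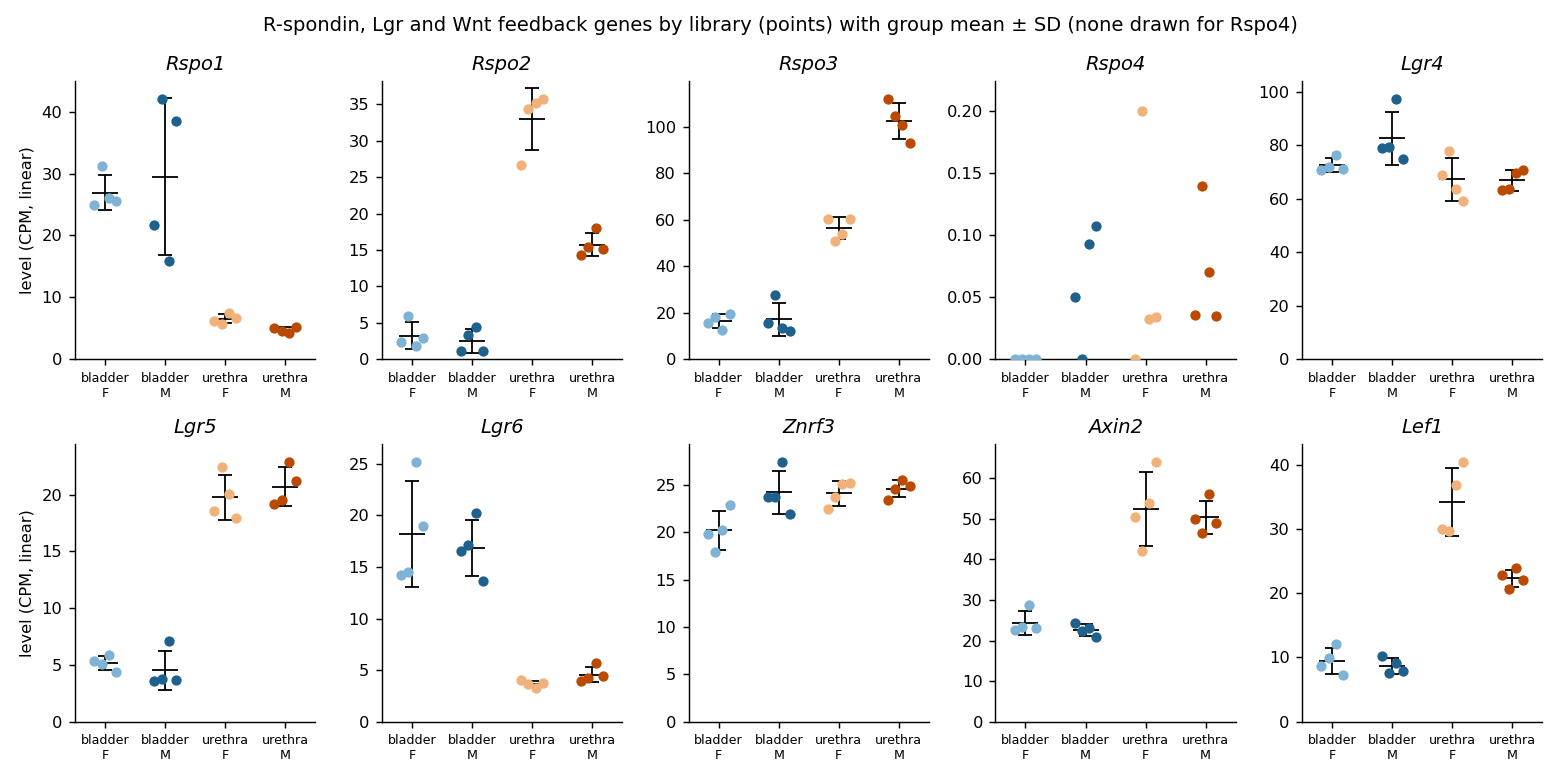
Level of each gene in every library in CPM on linear axes, with points for the 4 libraries of each group and bars for mean ± SD (n = 4; Rspo4, at 0 to 5 counts a library, is drawn as points only). The bladder and urethra points of Rspo1, Rspo2, Rspo3, Lgr5, Lgr6, Axin2 and Lef1 do not overlap, and within the urethra the female and male points of Rspo1, Rspo2, Rspo3 and Lef1 do not overlap. How many of all tested genes show no overlap was not counted, so this is not shown to be a trait of the members. Of all tested genes 75.0% were called between the tissues and 6.39% between the sexes in the urethra.

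The R-spondin genes did not share a direction. Rspo1 (chr4:124986430-125009099 in GRCm38, plus strand) led in the bladder. Its level in female bladder replicates 1 to 4 was 24.9, 31.2, 26.0 and 25.6 CPM, and in male bladder 21.6, 42.0, 15.9 and 38.6 CPM. In the urethra it was 6.13, 5.73, 7.42 and 6.64 CPM in females and 4.95, 4.61, 4.28 and 5.22 CPM in males. All 8 bladder libraries lay above all 8 urethra libraries, and the male bladder was the widest group, with replicates 2 and 4 high and replicates 1 and 3 low. Rspo1 was lower in the urethra by a log2 difference of −2.34 ± 0.17 (SE, adjusted p = 3.19e-09), and 1.99% of tested genes lay further in that direction.

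Most markers of the mesothelium, the outer lining of the bladder, were lower in the urethra, as Rspo1 was. Of 8 such markers 7, among them Msln, fell in the urethra and 1, Wt1, was not called, with a median log2 difference of −3.28. Their summed level was 1187, 1325, 862 and 1029 CPM in female bladder and 1060, 1572, 1042 and 1536 CPM in male bladder. It was 211 to 394 CPM in female urethra and 400 to 495 CPM in male urethra. Krt19 and Upk3b, with bladder means of 496 and 374 CPM, weigh most in this sum and also belong to the epithelium markers. Within the male bladder the same replicates, 2 and 4, were high for the mesothelium markers and for Rspo1. Within the urethra the order was the other way: every male library had the higher mesothelium sum and the lower Rspo1 level. The part of mesothelium in the Rspo1 difference was not tested.

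Rspo3 (chr10:29452416-29535867, minus strand) was the most abundant R-spondin gene of the urethra. It was measured at 15.6, 18.01, 12.4 and 19.2 CPM in female bladder and at 15.5, 27.7, 13.3 and 12.1 CPM in male bladder. The urethra libraries held 60.4, 51.0, 53.8 and 60.4 CPM in females and 112, 105, 101 and 93.2 CPM in males. Every urethra library exceeded every bladder library, and every male urethra library exceeded every female one. The tissue difference was 2.19 ± 0.14 on the log2 scale (SE, adjusted p = 1.35e-09), with 5.49% of tested genes further in that direction. The span of Rspo3 overlaps that of Gm20276 on the same strand. Any read pairs shared by both genes were counted for neither, and how much exon sequence they share was not computed.

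Rspo2 (chr15:43020794-43170826, minus strand) showed the largest log2 difference of the members. Levels in the bladder were low, at 2.35, 5.91, 1.77 and 2.87 CPM in females and 1.15, 3.36, 4.40 and 1.13 CPM in males. In the urethra they were 26.7, 34.4, 35.2 and 35.7 CPM in females and 14.3, 15.4, 18.1 and 15.1 CPM in males. Neither the tissues nor the sexes within the urethra overlapped, and here the female urethra was the higher group. The tissue difference was 2.99 ± 0.25 (log2, SE, adjusted p = 3.00e-08), and 3.13% of tested genes lay further.

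Rspo4 (chr2:151842927-151874668, plus strand) was close to absent, with 20 counts in all 16 libraries together. No read pair was assigned to it in the 4 female bladder libraries, where 3 counts, the limit that a count of 0 allows, would equal 0.152 to 0.170 CPM. The male bladder libraries had 1, 0, 2 and 2 counts, the female urethra 0, 5, 1 and 1, and the male urethra 1, 4, 2 and 1. It did not enter the test, and no fold is given for it.

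Set on a common scale of CPM per kilobase of exon, the R-spondin genes changed places between the tissues. Of their summed level Rspo1 made up 70.3 ± 3.86% in female and 70.2 ± 8.98% in male bladder (SD, n = 4), but 11.9 ± 1.14% in female and 6.36 ± 0.78% in male urethra. Rspo3 accounted for 26.6 ± 3.60% and 26.9 ± 7.21% in female and male bladder, and for 65.0 ± 3.63% and 85.6 ± 1.27% in female and male urethra. The share of Rspo2 was 3.07% and 2.70% in the bladder, 23.0 ± 3.03% in female urethra and 7.96 ± 1.03% in male urethra. The bladder pool was thus led by Rspo1 and the urethra pool by Rspo3 in every library, and the female urethra held more Rspo2 than the male. Summed over the genes, the R-spondin level was 19.8 ± 2.38 and 21.3 ± 8.05 CPM per kilobase in female and male bladder and 28.1 ± 1.52 and 38.8 ± 2.39 in female and male urethra. These shares rest on the exon length in the count table, which merges all annotated transcripts of a gene. With CPM not divided by length the leading gene of each group was the same, at 58.3% and 58.8% for Rspo1 in the bladder and 58.8% and 83.3% for Rspo3 in the urethra.

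**Figure D2:**
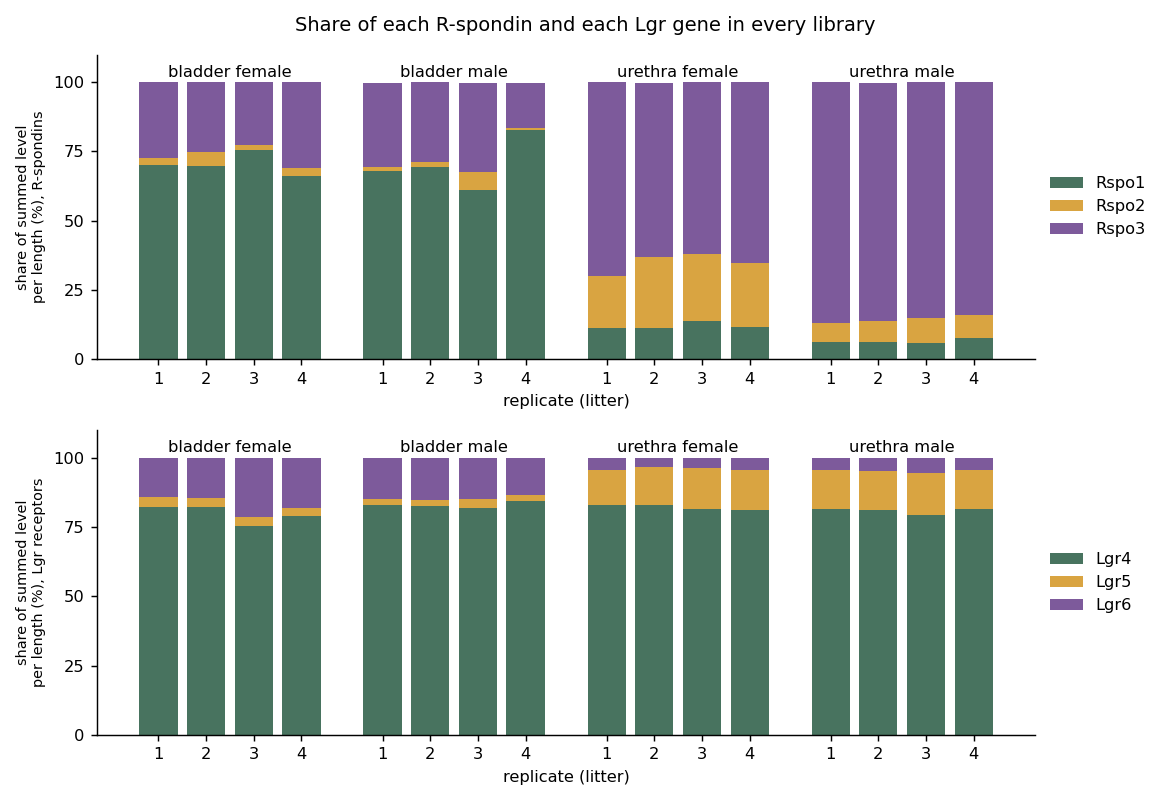
Share of each R-spondin gene (top; Rspo4 left out) and of each Lgr gene (bottom) in the summed level of its family, in percent of CPM per kilobase of exon, with 1 bar per library. Rspo1 fills most of each bladder bar and Rspo3 most of each urethra bar, while Lgr4 fills most of the bar in all 16 libraries.

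The receptor genes Lgr5 and Lgr6 changed in opposite directions, and Lgr4 changed little. Lgr4 (chr2:109917647-110014257, plus strand), the most widely expressed of the 3, was measured at 70.7, 71.8, 76.4 and 71.2 CPM in female bladder and 78.8, 79.4, 97.1 and 74.7 CPM in male bladder. It stood at 68.7, 77.8, 63.5 and 59.1 CPM in female urethra and 63.1, 63.7, 69.7 and 70.8 CPM in male urethra. The tissues overlapped, although in 7 of 8 pairs of the same litter and sex the urethra library was the lower. Its log2 difference was −0.21 ± 0.06 (SE, adjusted p = 0.00585), and 37.5% of tested genes lay further in that direction. The call held in the edgeR test with DESeq2 size factors (−0.19, adjusted p = 0.0130) and in the DESeq2 Wald test (−0.19, adjusted p = 0.00899). It was lost with library totals alone (−0.07, adjusted p = 0.317), a setting that moved the median of all tested genes from −0.03 to 0.11. It was also lost with the epithelium marker level as a covariate (−0.05, adjusted p = 0.697) and without male bladder replicate 3, its highest library (−0.13, adjusted p = 0.0510).

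Lgr5 (chr10:115450311-115587780, minus strand), known as a stem cell marker and Wnt target in the intestine, was higher in the urethra. Bladder libraries held 5.31, 5.11, 5.87 and 4.35 CPM in females and 3.61, 3.75, 7.13 and 3.65 CPM in males. Urethra libraries held 18.6, 22.5, 20.003 and 17.9 CPM in females and 19.1, 19.5, 22.9 and 21.2 CPM in males. The tissues did not overlap, and the sexes did. The difference was 2.06 ± 0.12 (log2, SE, adjusted p = 2.27e-10), with 6.02% of tested genes further in that direction.

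Male bladder replicate 3, the highest bladder library for Lgr5, was also the highest male bladder library for Rspo2. It held 426 CPM of the 12 neuron markers and 199 CPM of the 10 glia markers. The other bladder libraries held 44.2 to 183 CPM and 87.9 to 130 CPM of these lists. Among them was female replicate 2, with 117 and 113 CPM, which was the highest of all bladder libraries for Rspo2 (5.91 CPM, against 4.40 CPM in male replicate 3). In the urethra the neuron list ran from 1530 to 2547 CPM and the glia list from 470 to 683 CPM, and all 12 and all 10 of their genes were higher there. Without male bladder replicate 3 the log2 differences were 2.25 for Lgr5 and 3.24 for Rspo2. Without female bladder replicate 2 they were 2.08 and 3.25. The part of nerve tissue in the Lgr5 and Rspo2 differences was not tested.

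Lgr6 (chr1:134983301-135105276, minus strand) was the receptor gene that was lower in the urethra. It was found at 14.2, 14.5, 25.2 and 19.004 CPM in female bladder and 16.5, 17.1, 20.2 and 13.6 CPM in male bladder. Urethra levels were 4.03, 3.61, 3.29 and 3.78 CPM in females and 3.95, 4.23, 5.65 and 4.39 CPM in males. All bladder libraries exceeded all urethra libraries. The log2 difference was −2.10 ± 0.13 (SE, adjusted p = 2.31e-10), and 2.64% of tested genes lay further in that direction. Smooth muscle markers such as Myh11 and Acta2 moved the same way: 12 of 12 fell in the urethra (median log2 difference −3.14), from 17397 to 22604 CPM in sum in the bladder to 2081 to 2770 CPM. Female bladder replicate 3 had the highest level both of Lgr6 and of the smooth muscle list. The part of smooth muscle in the Lgr6 difference was not tested.

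Per kilobase, Lgr4 made up most of the Lgr level in each group, at 79.8% and 82.9% in female and male bladder and 82.2% and 80.9% in female and male urethra. Behind it Lgr6 and Lgr5 exchanged ranks. Lgr6 held 16.98% and 14.5% in female and male bladder and 3.90% and 4.72% in female and male urethra. Lgr5 held 3.25% and 2.56% in the bladder and 13.9% and 14.3% in the urethra. The summed Lgr level was 15.5 ± 1.20 and 16.9 ± 2.23 CPM per kilobase in female and male bladder and 13.9 ± 1.54 and 14.03 ± 0.91 in female and male urethra (SD, n = 4). The summed levels of the tissues overlapped in females, while in males every bladder library (15.04 to 20.2) lay above every urethra library (13.2 to 14.9).

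Of the feedback genes, Axin2 and Lef1 were higher in the urethra and Znrf3 was nearly level. Axin2 (chr11:108920349-108950783, plus strand) was measured at 22.5, 23.2, 28.7 and 23.0 CPM in female bladder and 24.4, 22.3, 23.2 and 20.9 CPM in male bladder. Its urethra levels were 50.4, 42.0, 53.8 and 64.0 CPM in females and 50.1, 46.5, 56.0 and 49.1 CPM in males. The tissues did not overlap, and the sexes did in both. The log2 difference was 1.13 ± 0.08 (SE, adjusted p = 1.27e-09), with 11.3% of tested genes further in that direction.

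Lef1 (chr3:131110471-131224356, plus strand) was at 8.61, 9.89, 12.1 and 7.27 CPM in female bladder and 10.3, 7.59, 9.17 and 7.84 CPM in male bladder. In the urethra it reached 29.99, 29.7, 36.8 and 40.4 CPM in females and 22.8, 20.6, 23.9 and 22.03 CPM in males. Both tissues and, within the urethra, both sexes stood apart without overlap. The log2 difference between tissues was 1.604 ± 0.10 (SE, adjusted p = 3.83e-10), and 8.07% of tested genes lay further. Female urethra replicates 3 and 4, the highest female libraries for Lef1 and for Axin2, were those lowest in epithelium markers. The span of Lef1 overlaps that of Gm42449 on its strand. Any shared read pairs were not counted, and the length of shared exon sequence was not computed.

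Znrf3 (chr11:5276324-5444847, minus strand) was found at 19.8, 17.9, 20.2 and 22.9 CPM in female bladder and 23.7, 23.7, 27.4 and 21.97 CPM in male bladder. The urethra libraries held 22.5, 23.7, 25.1 and 25.2 CPM in females and 23.4, 24.5, 25.5 and 24.9 CPM in males. The tissues overlapped, and the urethra was higher in 6 of 8 pairs of the same litter and sex. The log2 difference of 0.14 ± 0.06 (SE, adjusted p = 0.0371) was called, but 38.3% of tested genes lay further in that direction. In females it was 0.26 ± 0.08 (adjusted p = 0.0110), and in males 0.02 ± 0.08 (adjusted p = 0.826). The call was lost under 9 of 23 alternative settings, among them the epithelium level, which goes with the tissue, as a covariate (0.01, adjusted p = 0.923). Leaving out male bladder replicate 2 or 4, female urethra replicate 3 or 4, or male urethra replicate 2, 3 or 4 ended it as well, at adjusted p-values of 0.0508 to 0.0808.

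Beside the neuron and glia lists, markers of other tissues were higher in the urethra together with Rspo2, Rspo3, Lgr5, Axin2 and Lef1. Of 11 tested skeletal muscle precursor markers, of 12, 10 were higher and 1 lower (median log2 difference 5.30). The 12 summed to 142 to 180 CPM in the bladder and 169 to 286 CPM in the urethra, with Pax3 at 0 in male bladder. The lower one, Tnnt1, makes up most of the bladder sum, with a mean of 160 CPM there and 57.3 CPM in the urethra. Of 10 endothelium markers 9 were higher and 1 lower (median 0.72), at 330 to 503 CPM against 555 to 710 CPM. Of 5 tested cartilage markers, of 8, 4 were higher and 1 was not called (median 1.63), at 15.1 to 26.9 CPM against 48.0 to 71.6 CPM, with Snorc at 0 in female urethra. The 8 immune markers were mixed, with 4 higher, 2 lower and 2 not called (median 0.25). The part of these tissues in the differences of the 5 genes was not tested.

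Because Axin2 and Lef1 moved together and are known TCF/LEF targets, their promoter windows were searched for TCF/LEF heptamers. Windows of 250 bases before the RefSeq start (GRCm38.p6) were present for 6 of the 10 members, Axin2, Lef1, Lgr4, Lgr6, Rspo1 and Rspo4, with 9 windows in all. The motifs were AACAAAG, then also the variant ATCAAAG, the variant TACAAAG, and the variant TTCAAAG, on both strands. One of the 9 windows held a match, against 4874 of 32851 windows (14.8%) over all genes. Several of the 9 belong to Lef1 and some of these overlap, so they are too few to compare with the background. The share of G and C bases in the member windows ran from 44.8% to 69.6%, against a median of 52.4% over all windows, and was not matched. The match lies in a window before an internal Lef1 start, within the gene and outside its annotated exons, with its first base 147 bases before that start (position −147). A match is a description of the letters and not a binding site. The Axin2 window, the first Lef1 window and the internal Lef1 window, on the plus strand, are given here in lower case with the match in capitals.
Axin2, chr11:108920099-108920348: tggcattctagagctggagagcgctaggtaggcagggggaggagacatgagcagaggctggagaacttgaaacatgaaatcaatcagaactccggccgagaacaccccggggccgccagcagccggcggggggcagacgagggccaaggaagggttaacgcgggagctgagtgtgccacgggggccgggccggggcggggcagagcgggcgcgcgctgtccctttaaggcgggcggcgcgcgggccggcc
Lef1, first start, chr3:131110047-131110296: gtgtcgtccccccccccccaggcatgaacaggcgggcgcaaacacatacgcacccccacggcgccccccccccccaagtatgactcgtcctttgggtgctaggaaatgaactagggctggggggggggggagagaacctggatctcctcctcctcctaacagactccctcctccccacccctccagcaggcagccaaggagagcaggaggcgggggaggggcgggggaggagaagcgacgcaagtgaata
Lef1, internal start, chr3:131156044-131156293: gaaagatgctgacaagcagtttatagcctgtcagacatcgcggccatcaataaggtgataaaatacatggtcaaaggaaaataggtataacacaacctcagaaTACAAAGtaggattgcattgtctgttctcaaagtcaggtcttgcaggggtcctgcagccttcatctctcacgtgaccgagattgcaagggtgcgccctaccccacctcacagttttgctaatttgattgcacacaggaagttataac

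**Figure D3:**
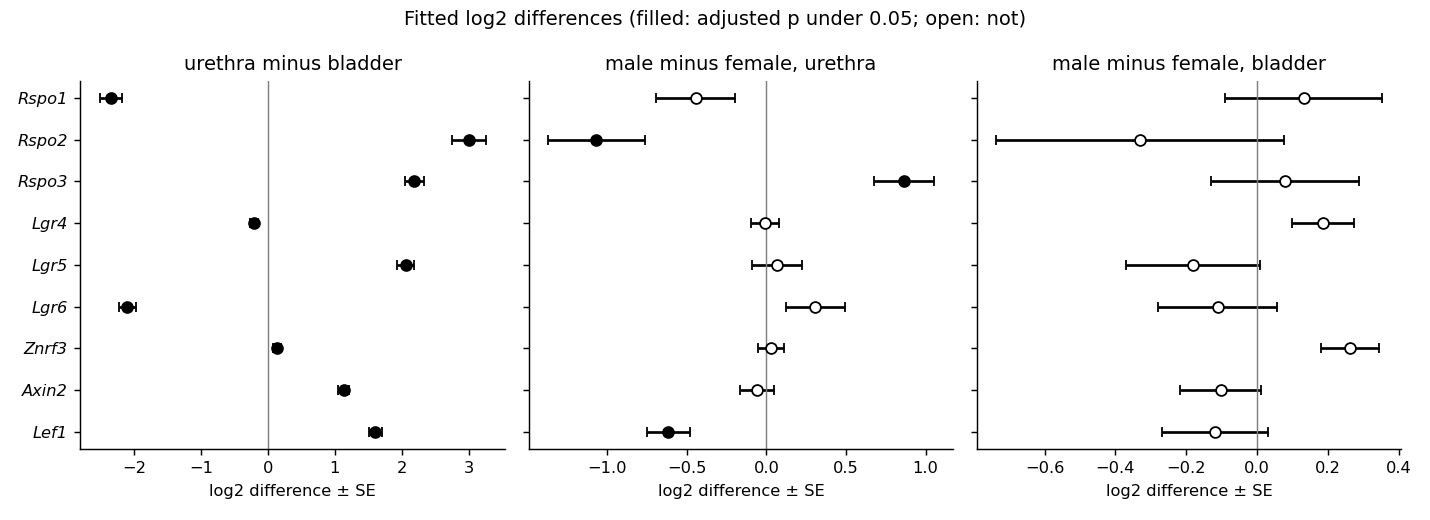
Fitted log2 differences ± SE of the 9 tested members for urethra minus bladder (left), male minus female in the urethra (middle) and male minus female in the bladder (right), with filled points for an adjusted p under 0.05. The 3 panels have different scales; all 9 points are filled on the left, those of Rspo2, Rspo3 and Lef1 in the middle, and none on the right.

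Between the sexes, 3 of the 9 tested members differed in the urethra: Rspo3 was higher in males, and Rspo2 and Lef1 were higher in females. In this comparison 6.39% of all tested genes were called, 3.97% higher and 2.42% lower in males. The male minus female log2 difference of Rspo3 was 0.86 ± 0.19 (SE, adjusted p = 0.0107), with a mean of 102.7 ± 7.81 CPM in the 4 male libraries and 56.4 ± 4.79 CPM in the 4 female ones (SD). For Lef1 it was −0.62 ± 0.13 (adjusted p = 0.00939), with 22.3 ± 1.37 CPM in males and 34.2 ± 5.29 CPM in females. For Rspo2 it was −1.07 ± 0.30 (adjusted p = 0.0489), with 15.7 ± 1.62 CPM in males and 33.0 ± 4.23 CPM in females. Each of these differences had the same sign in 4 of 4 litters. Rspo1 was also lower in the male of each of 4 litters without overlap of the groups, at 4.77 ± 0.41 against 6.48 ± 0.73 CPM, but it did not pass the test (−0.45 ± 0.25, adjusted p = 0.349).

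The epithelium markers also differed among the urethra libraries, at 1955, 1903, 1082 and 696 CPM in females and 1780 to 2376 CPM in males. With the mean log2 level of these markers as a covariate none of the 9 members was called between the sexes in the urethra. The Rspo3 difference kept its size (0.85, adjusted p = 0.0883), and that of Lef1 was smaller (−0.40, adjusted p = 0.142). Without female urethra replicates 3 and 4, which leaves fewer libraries, none was called either, with 0.88 for Rspo3 (adjusted p = 0.123) and −0.42 for Lef1 (adjusted p = 0.236). The call of Rspo2 was the least firm: it was lost in 12 of the 15 settings run for this comparison, with log2 differences of −1.16 to −0.96 and adjusted p-values of 0.0349 to 0.347. Among these was DESeq2 (adjusted p = 0.0884), and each urethra library except female replicate 1 lost it the call when left out. The other tested members gave differences of −0.06 (Axin2), −0.01 (Lgr4), 0.03 (Znrf3), 0.07 (Lgr5) and 0.31 (Lgr6). Approximate 95% intervals ran from −0.27 to 0.15 for Axin2 and from −0.24 to 0.38 for Lgr5, so that a sex difference of the size seen for Rspo3 lay outside both.

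In the bladder no member differed between the sexes in the edgeR quasi-likelihood test or with DESeq2, where 0.581% of all tested genes were called. At an unadjusted p under 0.05 there were 2, Lgr4 with a male minus female log2 difference of 0.19 ± 0.09 and Znrf3 with 0.26 ± 0.08. The intervals were wide for Rspo2, from −1.13 to 0.47, and for Rspo3, from −0.33 to 0.49. Whether the sex difference itself differed between the tissues was tested as an interaction, in which 0.668% of all genes were called and no member was, with edgeR or DESeq2. Rspo3 (0.79, adjusted p = 0.361) and Lef1 (−0.50, adjusted p = 0.460) were the 2 members at an unadjusted p under 0.05. Without male bladder replicate 2, the highest bladder library for Rspo3, the Rspo3 interaction was 1.12 (adjusted p = 0.00471). The sex differences in the urethra are therefore not shown to be particular to that tissue.

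Levels of different genes were compared per kilobase of exon. In female bladder the order from the highest mean down was Rspo1 (13.9 CPM per kilobase), Lgr4 (12.3), Rspo3 (5.27), Axin2 (4.43), Lgr6 (2.66), Znrf3 (2.56), Lef1 (1.08), Rspo2 (0.63), Lgr5 (0.50) and Rspo4 (0). The male bladder had the same order save that Znrf3 (3.07) stood before Lgr6 (2.46). In both, the ranges of Rspo1 and Lgr4, of Rspo3 and Axin2, of Znrf3 and Lgr6, and of Rspo2 and Lgr5 overlapped, and in female bladder those of Lef1 and Rspo2 did too. Female urethra began with Rspo3 (18.3), Lgr4 (11.4), Axin2 (9.55) and Rspo2 (6.46), followed by Lef1 (3.89), Rspo1 (3.35), Znrf3 (3.06), Lgr5 (1.92) and Lgr6 (0.54). In male urethra Rspo3 (33.2), Lgr4 (11.4) and Axin2 (9.16) led again, before Znrf3 (3.11), Rspo2 (3.08), Lef1 (2.54), Rspo1 (2.46), Lgr5 (2.01) and Lgr6 (0.67). Overlapping neighbours were Lgr4 and Axin2, Lef1 and Rspo1, and Rspo1 and Znrf3 in female urethra, and Znrf3 and Rspo2, Lef1 and Rspo1, and Rspo1 and Lgr5 in male urethra.

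The pattern of each member over the 16 libraries was set against all tested genes by the root mean square distance of log2 CPM centred on the gene mean, which is 0 for identical patterns. Nearest to Rspo1 were Wnt2b (0.257) and Podxl (0.260), to Rspo2 Tshr (0.338) and Sstr4 (0.361), and to Rspo3 Igfbp2 (0.208) and Kcnd2 (0.239). For the receptors they were C2cd2 (0.0935) and G6pdx (0.0945) with Lgr4, Syt9 (0.197) and Emb (0.221) with Lgr5, and Chrm3 (0.167) and Rbpms2 (0.191) with Lgr6. Csrnp2 (0.101) and Fzd1 (0.119) lay nearest to Axin2, Grik2 (0.178) and Cd109 (0.181) to Lef1, and Susd6 (0.0800) to Znrf3. Within the set, Axin2 and Lef1 were each other's nearest member (0.332), as were Lgr4 and Znrf3 (0.216) and Rspo1 and Lgr6 (0.535). Rspo2 was the most isolated, at 0.826 from its nearest member, Lgr5. The libraries share litters and depth, and these distances are a description.

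The other genes of the pathway had medians of 0.21 to 0.61 in the 5 lists, against −0.03 over all tested genes. Over all tested genes 36.5% were called higher and 38.5% lower in the urethra. Among 10 Frizzled receptor genes, 9 rose and 1 fell from bladder to urethra (median log2 difference 0.61). Fzd10 (2.70 ± 0.11, SE) and Fzd3 (0.93 ± 0.08) led, and Fzd4 (−0.62 ± 0.06) was the lower one. Among 17 tested genes of Wnt ligands and their secretion, of 21, 9 were higher, 3 lower and 5 not called (median 0.46). Wnt7a (4.34 ± 0.53) and Wnt3 (3.45 ± 0.23) were highest by log2 difference. Their bladder means were only 1.12 and 0.16 CPM, against 18.9 and 1.61 CPM in the urethra. Wnt3 in the bladder thus lay near 3 counts a library, which equal 0.139 to 0.170 CPM there. Wnt2b (−2.13 ± 0.14) and Wnt2 (−1.76 ± 0.13) were lowest. Wnt7a also belongs to the genital duct markers, of which 8 of 8 were higher in the urethra. Their sum was 295 to 406 CPM there, against 53.3 to 116 CPM in the bladder. Ret and Gata3, with urethra means of 205 and 78.3 CPM, weigh most in this sum. The highest bladder library for it, male replicate 3, was also the highest bladder library for the neuron markers. The part of genital duct in the Wnt7a difference was not tested.

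Of 15 tested feedback and target genes other than the members, of 16, 8 were higher, 6 lower and 1 not called (median 0.47). The secreted antagonists Wif1 (4.19 ± 0.15) and Dkk1 (3.93 ± 0.30) were highest. Both were low in the bladder, at means of 0.65 and 0.20 CPM, against 13.7 and 2.94 CPM in the urethra. Nkd1 (−0.91 ± 0.05), an inhibitor that binds Dishevelled, and Notum (−0.65 ± 0.13), an enzyme that removes the lipid from Wnt proteins, were lowest, so Axin2 and Lef1 did not rise together with every feedback gene. The 19 co-receptor and transducer genes had the smallest median, 0.21, with 13 higher, 1 lower and 5 not called. Pygo1 (0.81 ± 0.07), a nuclear partner of beta-catenin, and Gsk3b (0.61 ± 0.07), a kinase of the degradation complex, were highest, and Dvl1 (−0.35 ± 0.06), a Dishevelled gene, was the lower one. Heparan sulfate proteoglycans can bind R-spondins at the cell surface. Of their 10 core protein genes 5 were higher, 2 lower and 3 not called (median 0.35), from Gpc1 (1.32 ± 0.08) and Gpc2 (0.91 ± 0.16) to Gpc4 (−0.20 ± 0.07) and Sdc4 (−0.70 ± 0.11).

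**Figure D4:**
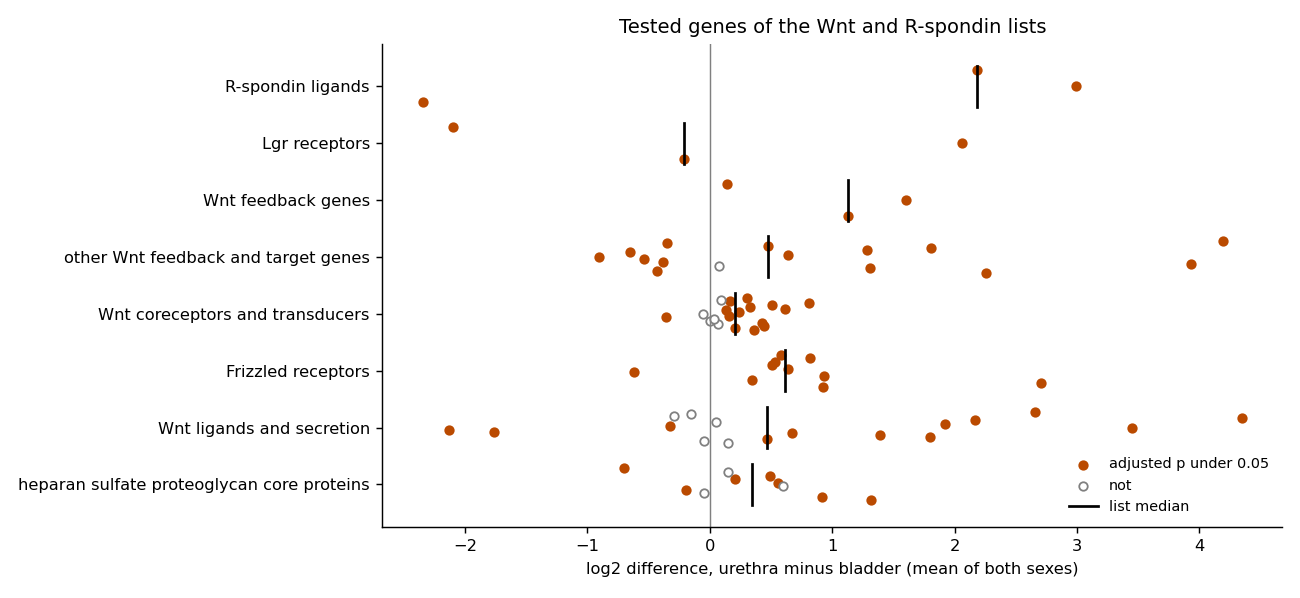
Log2 difference between urethra and bladder (mean of both sexes) of each tested gene in the 3 lists of members and the 5 lists of other pathway genes, with filled points for an adjusted p under 0.05, open points for genes not called and a bar at each list's median. The R-spondin and Lgr genes lie on both sides of 0, while 9 of 10 Frizzled genes lie above it.

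Between the sexes in the urethra these lists were mostly level. No Frizzled and no co-receptor or transducer gene was called. The 4 called genes of the ligand list, Wnt9b, Wnt16, Wnt7b and Wnt4, were all higher in males, by log2 differences of 3.75, 1.81, 1.12 and 1.10. Wnt7b stood at 15.5 ± 8.27 CPM in female and 33.6 ± 2.08 CPM in male urethra (SD, n = 4). Epithelium markers also leaned to the male urethra, with a median log2 difference of 0.58, although none of the 16 was called. How far epithelium contributes to the differences of these 4 genes, or of the called genes named below, was not tested. Wnt9b, at 13.3 ± 2.24 CPM in male and 0.99 ± 0.28 CPM in female urethra (SD, n = 4), also belongs to the 8 genital duct markers and is the 1 of them that was called between the sexes there. The summed level of that list, in which Ret and Gata3 weigh most, was 315 to 377 CPM in male and 295 to 406 CPM in female urethra. The part of genital duct in the Wnt9b difference was not tested. Of the feedback genes Wif1 (1.64 ± 0.15) and Sp5 (1.22 ± 0.17) were higher in males, and Cd44 (−0.39 ± 0.07) and Nkd1 (−0.26 ± 0.07) were higher in females, as Lef1 was. Gpc5 (1.25 ± 0.35) was the single called proteoglycan gene and was higher in males. Its level was low, at means of 0.82 CPM in male and 0.35 CPM in female urethra. These genes, apart from Wif1 and Nkd1, were picked out after their values were seen. In the bladder no gene of the 5 lists was called between the sexes.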

How the data were processed

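Poly(A)-selected, stranded RNA libraries of 16 samples were read as paired ends, per the labels' protocols. Per the submitters' processing notes, the authors used bcl2fastq, HISAT2 2.1.0 with GRCm38, SAMtools and Subread 1.6.3. Per the file headers, featureCounts (strand setting 2) produced the deposited counts, which are read pairs assigned to a symbol, and pairs shared by several genes were dropped. For the GENCODE release, the sources used here give none. The authors' DESeq2 table was not used here.

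All 18254 genes that passed filterByExpr were fitted in R 4.3.3 with edgeR 4.0.16 (TMM scaling, robust quasi-likelihood test, 4 group means), and p-values were adjusted by Benjamini-Hochberg over them, with a threshold of 0.05. The standard error is the log2 difference divided by the square root of F, an approximation, and intervals are 1.96 of it on either side. CPM use TMM-scaled totals, and log2 CPM a prior count of 2. The fit was tested on simulated data. The limit for a count of 0 covers counting error only. Libraries of 1 group differed by more than sampling noise (24 pairs, chi-squared per degree of freedom 4.91 to 37.2). Promoter sequences are those of RefSeq, and coordinates those of the count table's gene models.

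The labels give each replicate its litter. Deviations from the group means correlated at 0.09 to 0.41 between tissues of a litter and sex (7 of 8 pairs over 0.1) and at −0.05 to 0.27 between sexes (4 of 8). The litter entered as a replicate block in 1 of 23 alternative settings, which include DESeq2 1.42.0, other scalings, no filter, the epithelium level as a covariate and leaving out libraries. The members and all gene lists were chosen with earlier results of these data known. Beside the members, the named genes are the called genes with the 2 highest and 2 lowest tissue differences of each pathway list, and the 2 nearest genes of each member, of which 1 is not reported here. Markers were given as summed levels. Figures were drawn with matplotlib 3.10.9.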

Additional observations from a re-analysis of the deposited data

Results flagged for a closer look

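Among 36 sets of 4 libraries, 1 per group and tested member, 3 had a library far from the other 3 by Dixon's criterion, where chance alone gives about 1 in 20. Lgr5 in male bladder was 7.13 CPM in replicate 3, above the other 3. Axin2 in female bladder was 28.7 CPM in replicate 3, above the other 3. Rspo2 in female urethra was 26.7 CPM in replicate 1, below the other 3. Each of these libraries stayed on its own tissue's side of the tissue difference.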

How the results depend on the processing

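Over the 23 alternatives, 684 log2 differences of single members were recomputed: 654 kept their side of the threshold, 29 lost a call with the direction kept, and 1 gained a call. No called difference changed sign, while small differences that were not called could, such as the Axin2 interaction (−0.05 to 0.23). The number of members called between the sexes in the urethra fell to 0 with the epithelium covariate and to 0 without female urethra replicates 3 and 4. The cause was not tested, and the second setting also has fewer libraries. Leaving out 1 library gave 0 to 1 members called for the interaction, the 1 being Rspo3 without male bladder replicate 2. With the litter as a replicate block 9 members were called between tissues and 3 between the sexes in the urethra, and no call of a member count changed. The tissue call of Lgr4 was lost without a filter too (adjusted p = 0.0789). With library totals alone 60.8% of genes called between tissues were higher in the urethra, against 48.7%. Over all genes, 1167 were called between the sexes in the urethra, but 583 with the covariate and 370 without the 2 female libraries. In the bladder 106 were called, 473 with DESeq2 and 38 with the covariate. For the interaction 122 were called, 274 with DESeq2, 188 with the covariate and 56 without the 2 libraries. Counts were lowest for Rspo4, with 0 to 5 a library, and then for Rspo2 in the bladder, with 21 to 104.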
